A study of Homo sapiens with 18 samples.

Results

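The 32 genes described here code for the proteins of glycolysis and the pentose phosphate pathway. They carry glucose into the cell, break it down to pyruvate, turn pyruvate into lactate, export the lactate and divert sugar phosphates to ribose. They were chosen by name, as a list of pathway members, with earlier results of these data known. All 32 had a row in each of the 3 deposited tables, out of 17561 genes with a row in at least 1 table. The study asked what follows loss of FOXO3, a forkhead transcription factor, in Burkitt lymphoma, a MYC-driven cancer of B cells, and its title calls the knockdown toxic. BL-41, Namalwa and Jiyoye are established lines of that lymphoma, and Namalwa and Jiyoye carry Epstein-Barr virus. In each line a lentivirus delivered either a short hairpin RNA against FOXO3 (FOXO3 shRNA) or a scrambled hairpin (scrambled shRNA), and infected cells were recovered by sorting at day 4. All 6 groups therefore share viral infection and a sort, and the labels name a single FOXO3 hairpin. Each group held 3 libraries of poly(A)-selected RNA, 18 in total. They are described as triplicates with no word on separate cultures, and the p-values therefore cover the differences among these 3 libraries alone, possibly technical ones. In such bulk samples fewer cells with a transcript and less of it per cell cannot be told apart.

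Glycolysis splits glucose into a pair of trioses and oxidises them to pyruvate in the cytosol, with a net gain of ATP. Lactate dehydrogenase then restores the NAD+ that the triose steps use. The pentose phosphate pathway branches off at glucose 6-phosphate: its oxidative arm yields NADPH, and its non-oxidative arm interconverts sugars and yields ribose 5-phosphate for nucleotides. Dividing lymphoma cells are known for a high flux through both. MYC and the hypoxia-inducible factor HIF-1 are known activators of many glycolysis genes, and FOXO3 is known as a nuclear factor that AKT restrains.

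Each deposited table held 1 normalized value per group and no value per library, so no value per sample and no SD between libraries can be given. Judged from the tables, the values are on the scale of counts divided by library size factors, and their ratio is the deposited fold change. A fold change sets FOXO3 shRNA over scrambled shRNA, is given as log2 and, judged from the tables, was moderated towards 0. This understates the change of low genes and of genes with a large error, whatever their level. Where a signed value with an interval follows the levels of a gene, it is this log2 fold change. Standard errors (SE) and 95% intervals were worked out from each deposited fold change and its p. The word called means an adjusted p under 0.05 in the authors' DESeq2 test. The table values of one group summed to between 17282413 and 18459745 with FOXO3 shRNA and between 17065755 and 18108430 with scrambled shRNA, and read totals per library were not analysed here. FOXO3 itself had a log2 fold change of -0.79 in BL-41 (SE 0.14, adjusted p = 3.15e-07), -1.09 in Namalwa (SE 0.16, adjusted p = 2.49e-09) and -0.30 in Jiyoye (SE 0.15, adjusted p = 0.187) in the authors' deposited table. A fall of FOXO3 was thus called for BL-41 and Namalwa but not for Jiyoye, and each Jiyoye result compares libraries by their labels, with no called fall of the target behind it. Of 9 B cell markers all had rows in each line, with PAX5 at 4185 or more in every group, while the B cell antigen MS4A1 was as low as 149.6 against 124 in Namalwa (FOXO3 shRNA against scrambled shRNA). T cell markers summed to at most 82.3 in any group. The 10 myeloid markers summed to 347 with FOXO3 shRNA and 184 with scrambled shRNA in BL-41, to 189.9 and 187 in Namalwa and to 375 and 341 in Jiyoye, in the same order. Of the B cell markers, 1 rose and 3 fell in BL-41, 0 were called in Namalwa by DESeq2 (1 higher and 1 lower at an unadjusted p under 0.05), and 2 rose in Jiyoye. Of all genes with a mean value of at least 100, 20.0% rose and 20.7% fell in BL-41. These shares were 3.85% and 5.76% in Namalwa and 12.7% and 12.8% in Jiyoye. CD79B, a subunit of the B cell receptor, fell in BL-41 (-0.84, adjusted p = 9.92e-11) and rose in Jiyoye (0.53, adjusted p = 0.000341) in the authors' deposited table. In BL-41, 3 of 7 measured myeloid markers rose (LYZ, CD14 and CD68), in Jiyoye CD14 rose, and the part of these markers in the results was not tested.

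Promoter sequence is shown for 6 of the members called in at least 2 lines, to set the letters beside the values. TPI1 and PGM1, called in 2 lines each, are not shown. LDHA, ENO1 and PGK1 are glycolysis genes that fell in BL-41 and Jiyoye, RPE is a pentose phosphate gene that fell in the same lines, and PGLS and RPIA are the pentose phosphate genes called in all 3 lines. Each stretch holds 140 bases upstream of the start site, 5′ to 3′ on the gene's strand, from RefSeq promoters of GRCh38.p14. Capitals mark the E-box CACGTG, to which MYC is known to bind, and the hypoxia response cores ACGTG and GCGTG, to which HIF-1 is known to bind, on either strand (CACGT and CACGC on the other strand). An E-box contains the core ACGTG.
LDHA, chr11:18394363-18394502, plus strand: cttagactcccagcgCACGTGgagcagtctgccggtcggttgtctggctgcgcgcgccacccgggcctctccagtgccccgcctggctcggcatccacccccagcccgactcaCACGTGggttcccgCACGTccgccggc
ENO1, chr1:8878727-8878866, minus strand: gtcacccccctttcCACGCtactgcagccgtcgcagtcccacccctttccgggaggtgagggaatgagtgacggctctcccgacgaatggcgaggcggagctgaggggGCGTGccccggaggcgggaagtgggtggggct
PGK1, chrX:78104028-78104167, plus strand: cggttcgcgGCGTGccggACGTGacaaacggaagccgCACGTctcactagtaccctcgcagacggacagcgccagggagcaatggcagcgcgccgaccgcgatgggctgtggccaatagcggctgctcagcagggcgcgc
RPE, chr2:210002498-210002637, plus strand: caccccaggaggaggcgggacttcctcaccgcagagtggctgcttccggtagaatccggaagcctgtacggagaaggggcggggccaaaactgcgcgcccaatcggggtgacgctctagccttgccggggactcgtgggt
PGLS, chr19:17511509-17511648, plus strand: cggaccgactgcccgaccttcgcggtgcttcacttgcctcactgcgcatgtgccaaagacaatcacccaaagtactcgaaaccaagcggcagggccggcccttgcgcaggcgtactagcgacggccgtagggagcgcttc
RPIA, chr2:88691533-88691672, plus strand: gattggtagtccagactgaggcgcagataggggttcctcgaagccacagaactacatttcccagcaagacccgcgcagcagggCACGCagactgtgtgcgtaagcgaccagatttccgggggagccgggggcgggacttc
LDHA held 2 E-boxes, starting at -185 and -87 relative to its start, and 1 further core at -73 in the stretch shown, with another core at 38 after the start and 1 at -123 in the window of a later start. ENO1 held 2 hypoxia cores in the stretch shown at -166 and -72, and PGK1 held 3, at -211, -202 and -183. RPE and PGLS had none of these letters in the whole window of 250 bases before to 50 after the start, and RPIA had 1 core, at -57. Promoter windows were found for 29 of the 32 members, 56 windows in all. An E-box lay in 7 of these 56 windows (12.5%) and in 7.26% of all 35116 promoter windows. The cores ACGTG or GCGTG lay in 34 of 56 (60.7%) and in 48.4% of all windows. The forkhead words GTAAACA and ATAAACA, which FOXO factors are known to bind, lay in 3 of 56 (5.36%), in windows of PFKM and PGM1, and in 7.43% of all. Of the members called in 2 lines but not shown, TPI1 held cores at -68 and -17. PGM1 held cores at -156, -35 and -26 and, in the window of a later start, a forkhead word at -123. Windows of a gene can overlap, and a match is a run of letters, not a shown binding site.

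More of these genes fell than rose in BL-41 and Jiyoye, while few were called in Namalwa. In BL-41, 2 of 32 genes rose, 9 fell and 21 were not called. Over all genes in BL-41 14.5% rose and 14.2% fell, and over genes with a mean value of at least 100, which fits these abundant transcripts better, 20.0% rose and 20.7% fell. The share of members that fell, 28.1%, thus lay above both shares of falling genes and the share that rose, 6.25%, below both shares of rising genes. In Namalwa 1 gene rose, 2 fell and 29 were not called, close to the background of 2.60% up and 3.81% down over all genes and 3.85% up and 5.76% down at a mean of at least 100. In Jiyoye 2 rose, 11 fell and 19 were not called, against 8.69% up and 8.70% down over all genes and 12.7% up and 12.8% down at a mean of at least 100; the members' share that fell was 34.4%. The median log2 fold change of the 32 genes was -0.18 for BL-41, -0.07 for Namalwa and -0.32 for Jiyoye, where that of all genes whose mean reached 100 was 0.00 in each line. Together the 32 genes took 1.08% of the summed value with FOXO3 shRNA and 1.32% with scrambled shRNA in BL-41, 1.69% and 1.84% in Namalwa, and 1.92% and 2.47% in Jiyoye, in the same order. Of the 32, 17 were called in at least 1 line and 15 in none, and no gene was called in opposite directions in different lines. PGLS fell and RPIA rose in all 3 lines. With 0.1 added to the SE in quadrature, as the root of the summed squares, neither was called in every line. A z test with that SE gave an adjusted p of 0.215 for PGLS in Namalwa and 0.0735 for RPIA in Jiyoye. TPI1, PGK1, ENO1, LDHA, PGLS and RPE fell in both BL-41 and Jiyoye, which is 66.7% of the 9 that fell in BL-41 and 54.5% of the 11 that fell in Jiyoye. How many of all genes were called in the same direction in several lines was not counted. These overlaps thus have no background share to be set against.

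**Figure D1:**
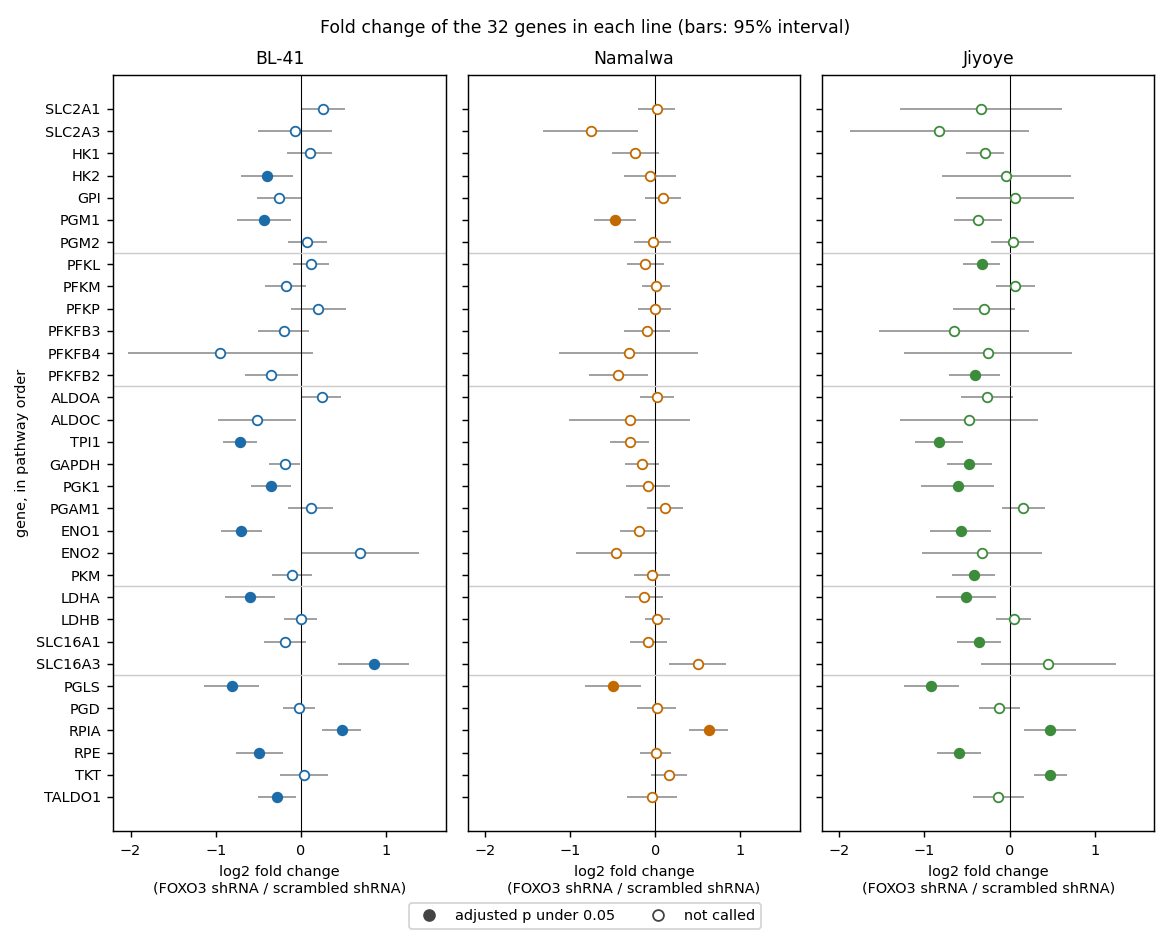
Log2 fold change (FOXO3 shRNA over scrambled shRNA, horizontal axis) of the 32 genes in pathway order from uptake at the top to the pentose phosphate pathway at the bottom, 1 panel per line, with 95% intervals from the recovered SE and filled points for an adjusted p under 0.05. Filled points left of 0 number 9 in the BL-41 panel, 2 in the Namalwa panel and 11 in the Jiyoye panel, and those right of 0 number 2, 1 and 2.

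Of the 7 genes of uptake and hexose entry, 2 fell in BL-41, 1 fell in Namalwa, and 0 were called in Jiyoye by DESeq2 (2 lower at an unadjusted p under 0.05). The glucose transporter genes SLC2A1 and SLC2A3 (GLUT1 and GLUT3) were not called in any line. For SLC2A1, the authors' deposited table gave 4821 with FOXO3 shRNA and 4028 with scrambled shRNA in BL-41, 4576 with FOXO3 shRNA and 4517 with scrambled shRNA in Namalwa and 3052 with FOXO3 shRNA and 3849 with scrambled shRNA in Jiyoye. The Jiyoye change of SLC2A1, -0.33 (95% interval -1.29 to 0.62, adjusted p = 0.763), had a wide interval. SLC2A3 stood at 135 with FOXO3 shRNA and 229 with scrambled shRNA in Namalwa, with a log2 fold change of -0.76 (95% interval -1.31 to -0.21, adjusted p = 0.0894), and at 1465 with FOXO3 shRNA and 2594 with scrambled shRNA in Jiyoye, with -0.82 (95% interval -1.88 to 0.23, adjusted p = 0.337), in the authors' deposited table. Hexokinase traps glucose as glucose 6-phosphate. Its mitochondrially bound, inducible form HK2 fell by 24.2% in BL-41, to 2657 with FOXO3 shRNA against 3506 with scrambled shRNA in the authors' deposited table, a log2 fold change of -0.40 (95% interval -0.71 to -0.10, adjusted p = 0.0377). HK2 had -0.06 in Namalwa and -0.04 in Jiyoye (adjusted p = 0.896 and 0.978), both not called, in the authors' deposited table. HK1 was not called in any line, and its lowest fold change in the authors' deposited table was in Jiyoye, -0.29 (95% interval -0.51 to -0.07, adjusted p = 0.0587). GPI, which makes fructose 6-phosphate, ranged from -0.25 in BL-41 to 0.09 in Namalwa in the authors' deposited table and was not called. PGM1, the phosphoglucomutase that links glucose 6-phosphate to glycogen and glycan synthesis, had lower values with FOXO3 shRNA in all 3 lines. PGM1 fell to 874 with FOXO3 shRNA against 1181 with scrambled shRNA in BL-41 and to 1444 against 2001 in Namalwa in the authors' deposited table, log2 fold changes of -0.43 (95% interval -0.75 to -0.12, adjusted p = 0.0258) and -0.47 (95% interval -0.72 to -0.22, adjusted p = 0.00642). In Jiyoye PGM1 had 1647 with FOXO3 shRNA and 2129 with scrambled shRNA in the authors' deposited table and was not called, -0.37 (95% interval -0.65 to -0.09, adjusted p = 0.0554). PGM2, which acts mainly on pentose phosphates, lay between -0.03 and 0.08 in the authors' deposited table and was not called in any line.

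Phosphofructokinase commits the sugar to glycolysis, and the bifunctional PFKFB enzymes set the level of its activator fructose 2,6-bisphosphate. None of the 6 genes of this control point was called in BL-41 or Namalwa by DESeq2 (1 lower at an unadjusted p under 0.05 in each), and 2 fell in Jiyoye. Of all genes with a mean of at least 100, 20.0% rose and 20.7% fell in BL-41. These shares were 3.85% and 5.76% in Namalwa and 12.7% and 12.8% in Jiyoye, in the same order. PFKL, the liver-type subunit, stood at 3508 with FOXO3 shRNA and 4405 with scrambled shRNA in Jiyoye in the authors' deposited table, -0.33 (95% interval -0.54 to -0.12, adjusted p = 0.0179). The muscle-type PFKM and the platelet-type PFKP were not called in any line, with fold changes in the authors' deposited table between -0.18 and 0.07 for PFKM and between -0.30 and 0.20 for PFKP. PFKFB2 was lower with FOXO3 shRNA in each line, with 263 against 336 in BL-41, 124 against 168 in Namalwa and 411 against 546 in Jiyoye in the authors' deposited table (FOXO3 shRNA against scrambled shRNA). It was called in Jiyoye, -0.41 (95% interval -0.71 to -0.11, adjusted p = 0.0425), and not in BL-41, -0.35 (adjusted p = 0.0866), or Namalwa, -0.43 (adjusted p = 0.134). PFKFB4 had the lowest fold change of the 32 genes in BL-41, 357 against 689 in the authors' deposited table (FOXO3 shRNA against scrambled shRNA), and was not called, -0.95 (95% interval -2.03 to 0.14, adjusted p = 0.211). PFKFB3, the form with the highest kinase activity, had 631 against 992 in Jiyoye in the authors' deposited table (FOXO3 shRNA against scrambled shRNA), -0.65 (95% interval -1.53 to 0.23, adjusted p = 0.374), and was not called in any line.

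The triose phase held 5 of the 11 falls in Jiyoye. Of its 9 genes, 3 fell in BL-41, 0 in Namalwa (1 at an unadjusted p under 0.05) and 5 in Jiyoye by the DESeq2 test, and none rose in a line (2, 0 and 0 at an unadjusted p under 0.05). Among all genes with a mean of at least 100, 20.0% rose and 20.7% fell in BL-41. These shares were 3.85% and 5.76% in Namalwa and 12.7% and 12.8% in Jiyoye. The values of the 9 genes summed to 124471 with FOXO3 shRNA and 150869 with scrambled shRNA in BL-41, to 211569 and 232158 in Namalwa, and to 223402 and 304276 in Jiyoye, in the same order. TPI1, the triosephosphate isomerase, had the smallest adjusted p of the 9 in each line. It stood at 5569 with FOXO3 shRNA and 9141 with scrambled shRNA in BL-41, 11239 with FOXO3 shRNA and 13834 with scrambled shRNA in Namalwa and 9319.7 with FOXO3 shRNA and 16508 with scrambled shRNA in Jiyoye in the authors' deposited table. TPI1 fell by 39.1% in BL-41, -0.71 (95% interval -0.92 to -0.51, adjusted p = 2.3e-10), and fell by 43.5% in Jiyoye, -0.82 (95% interval -1.11 to -0.54, adjusted p = 5.38e-07), from the authors' deposited table. In Namalwa TPI1 had -0.30 (95% interval -0.53 to -0.07, adjusted p = 0.116) in the authors' deposited table and was not called. ENO1, the main enolase, fell to 22164 with FOXO3 shRNA against 35972 with scrambled shRNA in BL-41 and to 34454 against 51277 in Jiyoye in the authors' deposited table. These were log2 fold changes of -0.70 (95% interval -0.94 to -0.45, adjusted p = 5.08e-07) and -0.57 (95% interval -0.93 to -0.22, adjusted p = 0.0132). In Namalwa ENO1 had 61556 with FOXO3 shRNA and 70348 with scrambled shRNA in the authors' deposited table, -0.19 (95% interval -0.42 to 0.03, adjusted p = 0.42), not called. PGK1, which makes the first ATP of the pathway, fell to 5979.7 with FOXO3 shRNA against 7607 with scrambled shRNA in BL-41 in the authors' deposited table, -0.35 (95% interval -0.58 to -0.11, adjusted p = 0.0159), and to 8509 against 12989.6 in Jiyoye, -0.61 (95% interval -1.04 to -0.18, adjusted p = 0.0337). PGK1 was not called in Namalwa (-0.09, adjusted p = 0.865, in the authors' deposited table).

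GAPDH and PKM were called in Jiyoye and in no other line. GAPDH, the triose dehydrogenase and the most abundant of the 32 per kilobase of transcript in each line, stood at 96144 with FOXO3 shRNA and 133460.0 with scrambled shRNA in Jiyoye in the authors' deposited table, -0.47 (95% interval -0.74 to -0.21, adjusted p = 0.00498). In BL-41 and Namalwa GAPDH had -0.19 and -0.16 (adjusted p = 0.113 and 0.507) in the authors' deposited table. PKM, the pyruvate kinase of proliferating cells, had 26142 with FOXO3 shRNA and 34946 with scrambled shRNA in Jiyoye in the authors' deposited table, -0.42 (95% interval -0.67 to -0.17, adjusted p = 0.0107). It had -0.11 in BL-41 and -0.04 in Namalwa (adjusted p = 0.598 and 0.913) in the authors' deposited table. PGAM1, the phosphoglycerate mutase between PGK1 and ENO1, was not called in any line and had fold changes of 0.11, 0.11 and 0.16 in BL-41, Namalwa and Jiyoye in the authors' deposited table. ALDOA, the main aldolase, had 0.24 (95% interval 0.01 to 0.47, adjusted p = 0.117) in BL-41, 0.02 in Namalwa and -0.26 (95% interval -0.57 to 0.04, adjusted p = 0.277) in Jiyoye in the authors' deposited table, and was not called. ALDOC had -0.51, -0.30 and -0.47 and ENO2, the neuronal enolase, 0.70, -0.46 and -0.32 in the same order in the authors' deposited table, none of them called. ENO2 in BL-41 was the 1 member value with a mean under 100, 59.2 with FOXO3 shRNA and 36.5 with scrambled shRNA in the authors' deposited table. Many of these abundant genes, GAPDH, TPI1, PGK1, ENO1, PKM and LDHA among them, have near-identical pseudogene copies. The submitters' notes name RSEM among the tools, but whether the reference held these copies is not given in the sources used here.

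**Figure D2:**
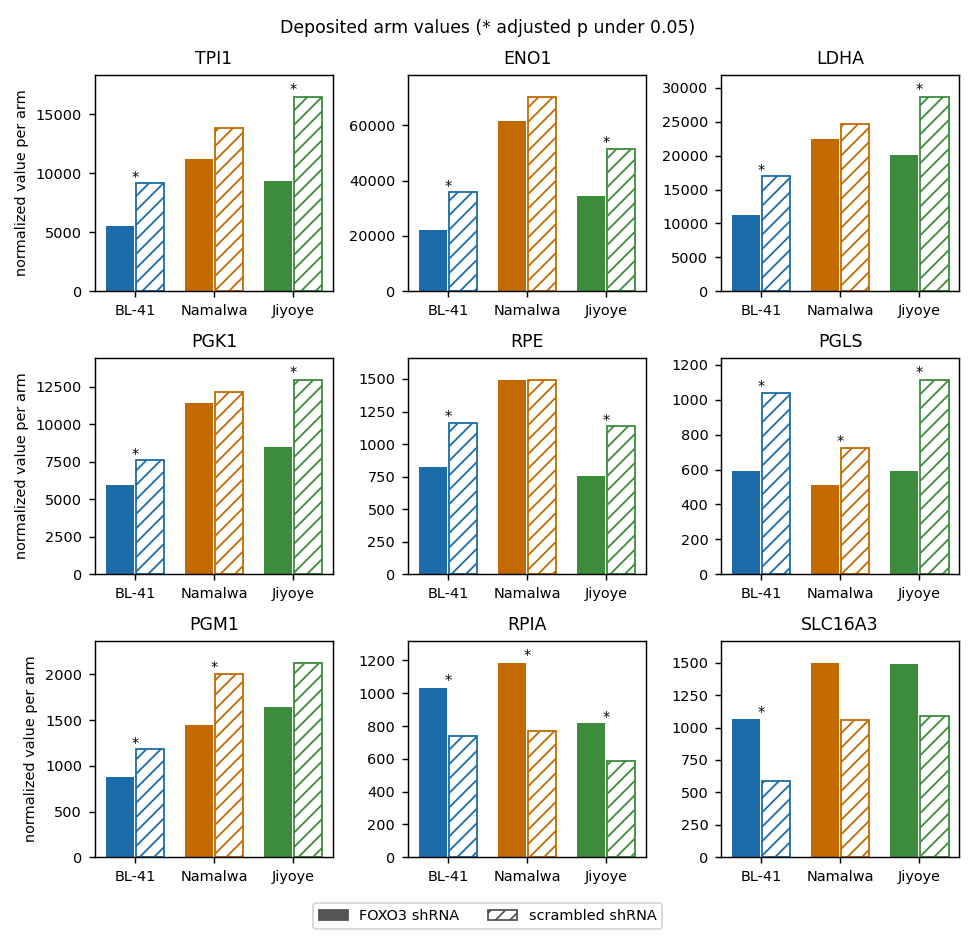
Deposited normalized value per group (vertical axis from 0) of 9 genes in the 3 lines, with FOXO3 shRNA as filled bars and scrambled shRNA as hatched bars; an asterisk marks an adjusted p under 0.05, and no error bar is drawn because the tables hold no value per library. TPI1, ENO1, LDHA, PGK1 and RPE carry an asterisk in BL-41 and Jiyoye, PGM1 in BL-41 and Namalwa, PGLS and RPIA in all 3 lines and SLC16A3 in BL-41.

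At the lactate end, LDHA fell and the lactate exporter SLC16A3 rose in BL-41. LDHA, the isozyme subunit that favours lactate formation, fell to 11210.3 with FOXO3 shRNA against 16973 with scrambled shRNA in BL-41 in the authors' deposited table, -0.60 (95% interval -0.89 to -0.30, adjusted p = 0.000603). It fell to 20131 with FOXO3 shRNA against 28734 with scrambled shRNA in Jiyoye in the authors' deposited table, -0.51 (95% interval -0.86 to -0.16, adjusted p = 0.0285), and had 22523 with FOXO3 shRNA and 24690.4 with scrambled shRNA in Namalwa, -0.13 (95% interval -0.36 to 0.10, adjusted p = 0.692). LDHB, the subunit that favours pyruvate formation, was not called in any line. Its fold changes in the authors' deposited table were -0.00 (95% interval -0.20 to 0.19, adjusted p = 0.987) in BL-41, 0.02 (95% interval -0.12 to 0.17, adjusted p = 0.924) in Namalwa and 0.05 (95% interval -0.15 to 0.25, adjusted p = 0.821) in Jiyoye. SLC16A3 (MCT4), the low-affinity lactate exporter of glycolytic cells, rose by 80.8% in BL-41, to 1064 with FOXO3 shRNA against 588 with scrambled shRNA in the authors' deposited table, 0.85 (95% interval 0.44 to 1.27, adjusted p = 0.000543). SLC16A3 had 1500.0 with FOXO3 shRNA and 1059.7 with scrambled shRNA in Namalwa in the authors' deposited table and was not called, 0.50 (95% interval 0.17 to 0.84, adjusted p = 0.0506). In Jiyoye it had 1493 with FOXO3 shRNA and 1088 with scrambled shRNA in the authors' deposited table, 0.46 (95% interval -0.33 to 1.25, adjusted p = 0.539). SLC16A1 (MCT1), the transporter of higher affinity, fell in Jiyoye, with 1162 with FOXO3 shRNA and 1491 with scrambled shRNA in the authors' deposited table, -0.36 (95% interval -0.62 to -0.10, adjusted p = 0.0409). It had -0.19 in BL-41 and -0.08 in Namalwa (adjusted p = 0.302 and 0.856) in the authors' deposited table.

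Shares of paired isozymes were computed per base of the canonical transcript, within 1 table at a time, since the tables were normalized separately. LDHA held 32.01% with FOXO3 shRNA and 41.5% with scrambled shRNA of the LDHA and LDHB value in BL-41, 40.7% with FOXO3 shRNA and 43.4% with scrambled shRNA in Namalwa and 43.0% with FOXO3 shRNA and 52.7% with scrambled shRNA in Jiyoye. Which subunit was the larger part depended on the length used: per base of coding sequence LDHA held 44.9% with FOXO3 shRNA and 55.2% with scrambled shRNA in BL-41, 54.3% with FOXO3 shRNA and 57.0% with scrambled shRNA in Namalwa and 56.6% with FOXO3 shRNA and 65.8% with scrambled shRNA in Jiyoye. The share of LDHA with FOXO3 shRNA minus that with scrambled shRNA was -9.54 ± 2.74 percentage points (SE, genes taken as independent) for BL-41, -2.63 ± 2.32 for Namalwa and -9.69 ± 3.52 for Jiyoye. SLC16A3 held 18.1% with FOXO3 shRNA and 9.68% with scrambled shRNA of the value of the lactate transporter pair in BL-41, 39.1% with FOXO3 shRNA and 30.0% with scrambled shRNA in Namalwa and 65.0% with FOXO3 shRNA and 51.3% with scrambled shRNA in Jiyoye, differences of 8.41 ± 2.56, 9.08 ± 3.34 and 13.7 ± 6.69 points. HK2 held 59.4% with FOXO3 shRNA and 67.4% with scrambled shRNA of hexokinase value in BL-41 (-8.09 ± 3.45 points), 74.6% with FOXO3 shRNA and 72.3% with scrambled shRNA in Namalwa (2.29 ± 2.76 points) and 45.9% with FOXO3 shRNA and 41.6% with scrambled shRNA in Jiyoye (4.30 ± 6.90 points). PGM1 held 50.7% with FOXO3 shRNA and 59.4% with scrambled shRNA of the PGM1 and PGM2 value in BL-41, 63.4% with FOXO3 shRNA and 70.1% with scrambled shRNA in Namalwa and 72.8% with FOXO3 shRNA and 78.0% with scrambled shRNA in Jiyoye, differences of -8.72 ± 3.44, -6.77 ± 2.71 and -5.23 ± 2.65 points. Among the phosphofructokinases PFKP held the largest part in every group, from 41.8% with FOXO3 shRNA in Jiyoye to 50.5% with FOXO3 shRNA in Namalwa. PFKFB4 made up 79.9% with FOXO3 shRNA and 75.8% with scrambled shRNA of the PFKFB value in Jiyoye, while PFKFB3 was the largest part in BL-41 (64.5% with FOXO3 shRNA, 54.3% with scrambled shRNA) and Namalwa (57.6% with FOXO3 shRNA, 53.7% with scrambled shRNA). These shares have no test, because the covariance of a pair of genes over libraries is not known. The ratio of the group values is the fold change judged to be moderated. A difference in share thus carries that moderation, which can differ between the genes of a step.

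**Figure D3:**
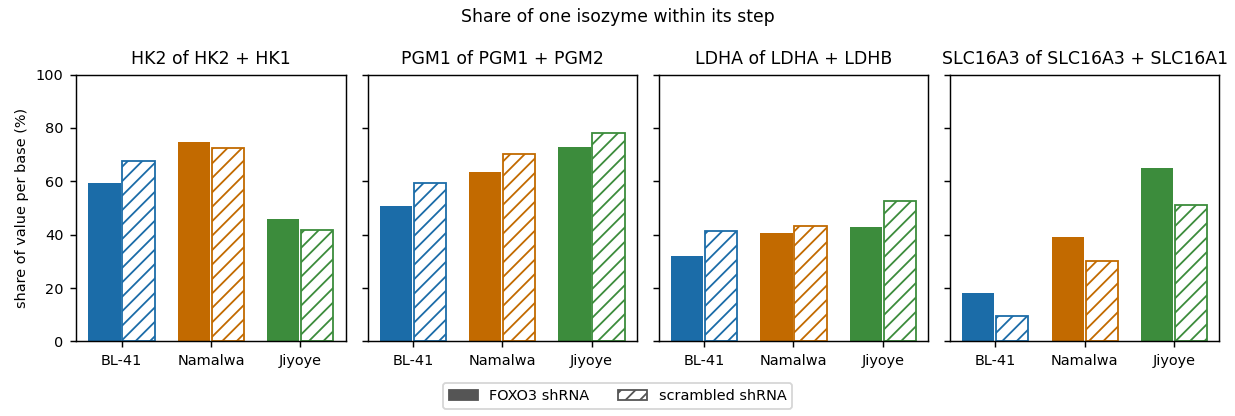
Share (percent, vertical axis from 0 to 100) of HK2, PGM1, LDHA and SLC16A3 in the summed value per base of each gene and its paired isozyme, with FOXO3 shRNA as filled bars and scrambled shRNA as hatched bars in each line. The LDHA and PGM1 bars are lower with FOXO3 shRNA in all 3 lines and the SLC16A3 bars are higher, while HK2 is lower in BL-41 and higher in the other lines.

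The pentose phosphate genes held the calls shared by all lines. Of 6 genes, 1 rose and 3 fell in BL-41, 1 rose and 1 fell in Namalwa, and 2 rose and 2 fell in Jiyoye. At a mean of at least 100, 20.0% of all genes rose and 20.7% fell in BL-41. These shares were 3.85% and 5.76% in Namalwa and 12.7% and 12.8% in Jiyoye. PGLS, the lactonase of the oxidative arm (chromosome 19, 17511649 to 17521288, GRCh38), stood at 591 with FOXO3 shRNA and 1038 with scrambled shRNA in BL-41, 513 with FOXO3 shRNA and 724 with scrambled shRNA in Namalwa and 591 with FOXO3 shRNA and 1116 with scrambled shRNA in Jiyoye in the authors' deposited table. Its log2 fold changes in the authors' deposited table were -0.81 (95% interval -1.13 to -0.49, adjusted p = 1.07e-05) in BL-41, -0.50 (95% interval -0.82 to -0.17, adjusted p = 0.0458) in Namalwa and -0.92 (95% interval -1.24 to -0.59, adjusted p = 1.42e-06) in Jiyoye. PGLS fell by 43.0% in BL-41, fell by 29.1% in Namalwa and fell by 47.0% in Jiyoye. RPIA, the ribose 5-phosphate isomerase (chromosome 2, 88691673 to 88750929), was higher with FOXO3 shRNA throughout, 1033 with FOXO3 shRNA and 742 with scrambled shRNA in BL-41, 1186 with FOXO3 shRNA and 769 with scrambled shRNA in Namalwa and 816 with FOXO3 shRNA and 585 with scrambled shRNA in Jiyoye in the authors' deposited table. RPIA rose by 39.2% in BL-41, 0.48 (95% interval 0.25 to 0.70, adjusted p = 0.000329), by 54.2% in Namalwa, 0.63 (95% interval 0.39 to 0.86, adjusted p = 1.43e-05), and by 39.4% in Jiyoye, 0.48 (95% interval 0.17 to 0.78, adjusted p = 0.0161), from the authors' deposited table. RPE, the epimerase that competes with RPIA for ribulose 5-phosphate, fell in BL-41 and Jiyoye. RPE had 827 with FOXO3 shRNA and 1161 with scrambled shRNA in BL-41, -0.49 (95% interval -0.77 to -0.21, adjusted p = 0.00327), and 751 with FOXO3 shRNA and 1135 with scrambled shRNA in Jiyoye, -0.60 (95% interval -0.85 to -0.34, adjusted p = 0.000155), in the authors' deposited table. In Namalwa RPE had 1495 with FOXO3 shRNA and 1492 with scrambled shRNA in the authors' deposited table, a log2 fold change of 0.00 (95% interval -0.18 to 0.19, adjusted p = 0.998). TKT, the transketolase that links the pathway back to glycolysis, rose in Jiyoye, with 15546 with FOXO3 shRNA and 11147 with scrambled shRNA in the authors' deposited table, 0.48 (95% interval 0.28 to 0.68, adjusted p = 5.57e-05). TKT had 0.04 in BL-41 and 0.16 in Namalwa (adjusted p = 0.887 and 0.515) in the authors' deposited table. TALDO1, the transaldolase, fell in BL-41, with 1924 with FOXO3 shRNA and 2338 with scrambled shRNA in the authors' deposited table, -0.28 (95% interval -0.51 to -0.06, adjusted p = 0.0491). PGD, the NADPH-yielding phosphogluconate dehydrogenase, was not called in any line and lay between -0.12 and 0.01 in the authors' deposited table.

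The fold changes were then compared between lines with a z test on their difference. For BL-41 minus Namalwa, 1 of 32 genes passed at an adjusted p under 0.05, against 7.01% of all genes in both tables. For BL-41 minus Jiyoye, 0 of 32 passed this z test (6 at an unadjusted p under 0.05), against 6.25%, and for Namalwa minus Jiyoye 1 passed, against 2.75%. The first was ENO1, with a difference of -0.51 (95% interval -0.84 to -0.17, adjusted p = 0.0445). The other was RPE, with 0.60 (95% interval 0.28 to 0.92, adjusted p = 0.0157) for Namalwa minus Jiyoye, and its BL-41 minus Namalwa difference was -0.49 (95% interval -0.83 to -0.16, adjusted p = 0.0531). TPI1 did not pass either way, with -0.42 (95% interval -0.72 to -0.11, adjusted p = 0.0841) for BL-41 minus Namalwa and 0.53 (95% interval 0.16 to 0.89, adjusted p = 0.103) for Namalwa minus Jiyoye. LDHA gave -0.47 (95% interval -0.84 to -0.09, adjusted p = 0.125) for BL-41 minus Namalwa, and PFKL gave 0.45 (95% interval 0.14 to 0.75, adjusted p = 0.0565) for BL-41 minus Jiyoye. TKT, called in Jiyoye, gave -0.44 (95% interval -0.79 to -0.10, adjusted p = 0.114) for BL-41 minus Jiyoye. For these genes a call in 1 line and not in another is therefore not a shown difference. Across the 32 genes the fold changes of BL-41 and Jiyoye had a Pearson r of 0.57, those of BL-41 and Namalwa 0.50 and those of Namalwa and Jiyoye 0.77. Where the mean reached 100 in both lines, r over all genes was 0.62, 0.66 and 0.60. These r are descriptions across genes, which are not independent replicates and share their libraries.

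The error of the fold change was larger for some of these genes than for other genes of like level. The recovered SE, which rises with the spread between libraries, was set against that of 500 genes of the same line. These were the genes of nearest mean among those with a mean of at least 100. The SE lay above their 95th percentile for 5 of 32 genes for BL-41, for Namalwa 6 and 10 for Jiyoye. The 5 include ENO2, whose mean in BL-41 lay under 100, so its comparison genes were of higher level. Without ENO2 the BL-41 count was 4 of 31. In Jiyoye these 10 were SLC2A1, SLC2A3, HK2, GPI, PFKFB3, PFKFB4, ALDOC, PGK1, ENO2 and SLC16A3. Their SE were 0.54 for SLC2A3, 0.50 for PFKFB4, 0.49 for SLC2A1 and 0.38 for HK2, which is 4.21, 3.93, 3.87 and 3.03 times the median of genes of like level. Moderation of the fold changes can hold down SE of this size, so such ratios may understate the spread. PFKFB4 stood out in each line, with SE of 0.55 in BL-41 and 0.42 in Namalwa. PFKM, LDHB, PGD and TKT had SE of 0.12, 0.10, 0.12 and 0.10 in Jiyoye. The same was measured for a list of 28 hypoxia-inducible genes outside glycolysis, such as BNIP3, ANKRD37 and NDRG1. Among those with a mean of at least 100, 5 of 18 lay above the 95th percentile for BL-41, 10 of 17 for Namalwa and 19 of 22 for Jiyoye. Genes of pyruvate entry into mitochondria did so for 0 of 14, 1 of 15 and 2 of 14 in the same order. Which library or group carried the spread cannot be read from tables with 1 value per group, and its source was not tested. Of the 10 genes, PGK1 was called in Jiyoye. The other 9 were not, with wide intervals that do not show that the values were alike.

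**Figure D4:**
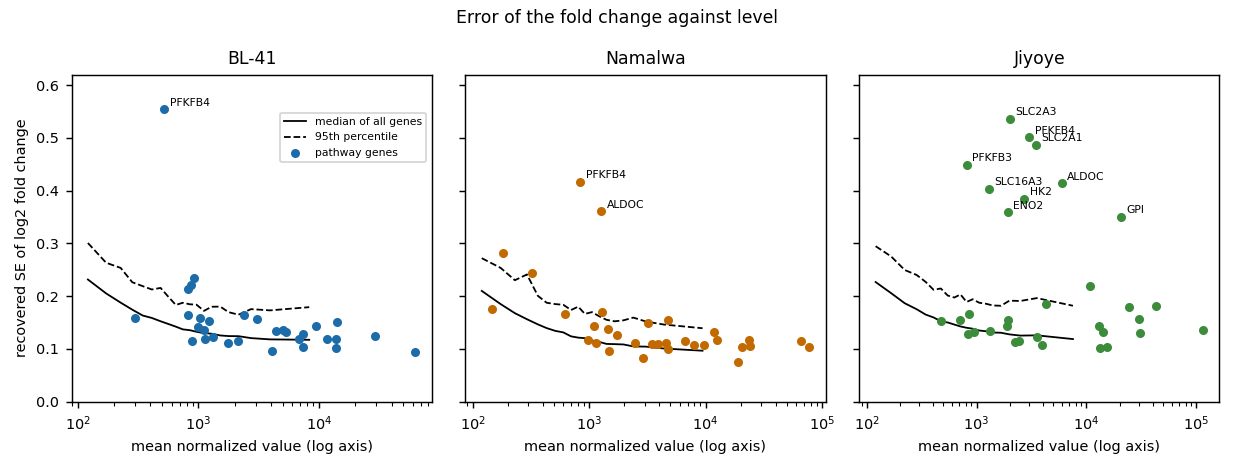
Recovered SE of the log2 fold change (vertical axis) against the mean normalized value (horizontal log axis) for the pathway genes with a mean of at least 100, 1 panel per line; the solid line is the median and the dashed line the 95th percentile of all genes in 20 bins of the mean. PFKFB4 lies far above the dashed line in each line, and in Jiyoye SLC2A1, SLC2A3, HK2, GPI, PFKFB3, ALDOC, ENO2 and SLC16A3 are labelled well above it.

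Other genes of the pathway, isozymes and side branches outside the 32, were counted in the same way. Of 49 listed, 41 had rows in BL-41, where 1 rose and 8 fell, 39 in Namalwa, where 0 rose by DESeq2 (1 at an unadjusted p under 0.05) and 3 fell, and 47 in Jiyoye, where 0 rose by DESeq2 (2 at an unadjusted p under 0.05) and 3 fell. Over all genes 14.5% rose and 14.2% fell in BL-41, 2.60% rose and 3.81% fell in Namalwa, and 8.69% rose and 8.70% fell in Jiyoye. The one that rose was ENO3, the muscle enolase, named after its values were seen, with 222 with FOXO3 shRNA and 117 with scrambled shRNA in BL-41 (0.92, adjusted p = 0.000337) in the authors' deposited table. The list's median log2 fold changes were -0.08, -0.06 and -0.10, and 14, 12 and 13 of them had a mean under 3 in BL-41, Namalwa and Jiyoye. SLC2A5 (GLUT5), a fructose transporter, had 5160.4 with FOXO3 shRNA and 8469.5 with scrambled shRNA in BL-41 (-0.71, adjusted p = 0.000372) and 533 with FOXO3 shRNA and 1082 with scrambled shRNA in Jiyoye (-1.02, adjusted p = 4.57e-08) in the authors' deposited table. BPGM, which makes bisphosphoglycerate beside PGK1, fell in BL-41 (-0.52, adjusted p = 0.0104) and Namalwa (-0.76, adjusted p = 6.82e-06) and had -0.55 in Jiyoye (adjusted p = 0.0524) in the authors' deposited table. H6PD, the hexose phosphate dehydrogenase of the endoplasmic reticulum, fell in BL-41 (-0.71, adjusted p = 0.0104) and Namalwa (-0.77, adjusted p = 2.33e-05) in the authors' deposited table and had -0.29 in Jiyoye (adjusted p = 0.248). ADPGK, an ADP-dependent glucokinase, fell in BL-41 (-0.27, adjusted p = 0.048) and Jiyoye (-0.64, adjusted p = 3e-05) in the authors' deposited table.

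Of 16 genes around the entry of pyruvate into mitochondria, 2 rose and 4 fell in BL-41, 0 rose and 0 fell by DESeq2 in Namalwa (1 and 2 at an unadjusted p under 0.05), and 0 rose by DESeq2 (0 at an unadjusted p under 0.05) and 3 fell in Jiyoye. In BL-41, 14.5% of all genes rose and 14.2% fell. These shares were 2.60% and 3.81% in Namalwa and 8.69% and 8.70% in Jiyoye. PDP1, the phosphatase that activates pyruvate dehydrogenase, rose in BL-41 with 731 with FOXO3 shRNA and 372 with scrambled shRNA (0.97, adjusted p = 2.9e-07) in the authors' deposited table. PDK2, a kinase that inhibits the same complex, fell in BL-41 (-0.77, adjusted p = 0.000971), and PDK3 fell in Jiyoye (-0.65, adjusted p = 5.66e-05), in the authors' deposited table. PCK2, the mitochondrial phosphoenolpyruvate carboxykinase, fell in BL-41 (-0.72, adjusted p = 8.94e-05) and Jiyoye (-0.87, adjusted p = 2e-06) in the authors' deposited table. Of 20 listed regulators of glycolysis genes, 0 rose by DESeq2 (2 at an unadjusted p under 0.05) and 5 fell in BL-41, 0 rose and 0 fell in Namalwa (1 and 2 at an unadjusted p under 0.05), and 2 rose and 2 fell in Jiyoye, where 8.69% of all genes rose and 8.70% fell. In BL-41 the falling share was 14.2% over all genes and 20.7% at a mean of at least 100, and in Namalwa 3.81% and 5.76%. MYC fell in BL-41, 3962 with FOXO3 shRNA and 6674 with scrambled shRNA in the authors' deposited table (-0.75, adjusted p = 0.000131), and had 0.15 in Namalwa (adjusted p = 0.589) and 0.00 in Jiyoye (adjusted p = 0.997). MYC stood at 16892 with FOXO3 shRNA and 16877 with scrambled shRNA in Jiyoye in the authors' deposited table, and its part in the values of the 32 genes was not tested. HIF1A, the oxygen-regulated subunit of HIF-1, rose in Jiyoye (0.31, adjusted p = 0.0468) and had 0.23 in BL-41 (adjusted p = 0.14) and 0.28 in Namalwa (adjusted p = 0.0506) in the authors' deposited table. HIF1AN, the hydroxylase that inhibits HIF-1, fell in BL-41 (-0.58, adjusted p = 6.17e-06) and Jiyoye (-0.72, adjusted p = 3.71e-06) in the authors' deposited table. TXNIP, a glucose-responsive inhibitor of glucose uptake, fell in Jiyoye with 1200.1 with FOXO3 shRNA and 2049 with scrambled shRNA (-0.77, adjusted p = 1.83e-06) in the authors' deposited table and had 0.21 in BL-41 (adjusted p = 0.185) and -0.11 in Namalwa (adjusted p = 0.677). ARRDC4, its relative, fell in BL-41 (-0.67, adjusted p = 0.000513) in the authors' deposited table.

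The 28 hypoxia-inducible genes outside glycolysis gave 2 rises and 9 falls among 28 measured in BL-41, 0 rises by DESeq2 (0 at an unadjusted p under 0.05) and 2 falls among 27 in Namalwa, and 0 rises by DESeq2 (0 at an unadjusted p under 0.05) and 3 falls among 28 in Jiyoye. Over all genes 14.2% fell for BL-41, 3.81% for Namalwa and 8.70% for Jiyoye, and the shares were 20.7%, 5.76% and 12.8% where the mean reached 100, so that the Jiyoye count lay near the background. Their median log2 fold changes were -0.30, -0.25 and -0.30 in these lines. Where the mean reached 100 they were -0.40, -0.35 and -0.42, and that of all genes was 0.00 in each line. In Jiyoye 19 of 22 such genes had an SE above the 95th percentile of genes of like level, which limits what could be called. FAM162A, a mitochondrial protein, fell in BL-41 (-1.17, adjusted p = 7.19e-10) and Jiyoye (-0.71, adjusted p = 0.000816) in the authors' deposited table. The mitophagy receptor BNIP3L fell in the same lines (-0.82, adjusted p = 4.23e-08 in BL-41 and -0.82, adjusted p = 0.00138 in Jiyoye, the authors' deposited table), as did ZNF395 (-0.87, adjusted p = 7.1e-08 and -0.80, adjusted p = 0.00151). WSB1, a ubiquitin ligase adaptor, fell in BL-41 (-0.97, adjusted p = 3.76e-10) and Namalwa (-0.72, adjusted p = 0.00065) in the authors' deposited table.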

How the data were processed

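Oligo-dT libraries of sorted cells were sequenced, per the labels' protocols. Per the submitters' processing notes, hg38 was the build and Bowtie2, RSEM and DESeq2 were the tools. The design text adds SOAPnuke for filtering, and tool versions are not given in the sources used here. The authors deposited 1 table per line. It holds a signal value per group and a log2 fold change that the authors deposited, judged from the values to be scaled by size factors and moderated towards 0, and p-values and adjusted p-values that the authors deposited from DESeq2. As no value per library is given, edgeR could not be run and the deposited DESeq2 test is the main one. The log2 ratio of the deposited group values equalled the deposited fold change (largest gap 1.39e-14), and Benjamini-Hochberg adjustment of the deposited p gave back the deposited adjusted p (largest gap 3.56e-15).

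Dividing the size of the fold change by the normal quantile of its p gave the SE. Its median was 0.144 for BL-41, 0.127 for Namalwa and 0.149 for Jiyoye for genes whose mean reached 100, which sets the precision. Differences between lines used a z test adjusted over all genes of each pair, and the calculation was run on simulated data. The simulated fold changes were drawn with the recovered SE itself, so they cannot show whether that SE suits these libraries. Isozyme shares used GENCODE 44 canonical transcript lengths, and the deposited length column of unstated origin served as an alternative. The members and lists were chosen with earlier results of these data known. All 32 members are accounted for; of each other list, at most the 4 called genes with the smallest adjusted p in any line are named, with MYC, HIF1A and TXNIP. BNIP3, ANKRD37, NDRG1, ENO3 and the marker genes were named after their values were seen. Alternatives were other thresholds, a mean filter, centred fold changes, a raised SE, other lengths and a shorter promoter window. The work used matplotlib 3.10.9, scipy 1.17.1, pandas 2.3.3, numpy 2.4.6 and Python 3.11.15.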

Additional observations from a re-analysis of the deposited data

Results flagged for a closer look

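Fold changes of 2 members differed between lines by the z test of the difference. ENO1 had -0.70 (95% interval -0.94 to -0.45, adjusted p = 5.08e-07) in BL-41 and -0.19 (95% interval -0.42 to 0.03, adjusted p = 0.42) in Namalwa in the authors' deposited table, a difference of -0.51. RPE had 0.00 (95% interval -0.18 to 0.19, adjusted p = 0.998) in Namalwa and -0.60 (95% interval -0.85 to -0.34, adjusted p = 0.000155) in Jiyoye in the authors' deposited table, a difference of 0.60. Among 96 such differences (32 genes in 3 pairs) these are the ones past the adjusted threshold, and neither passed at 0.01.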

How the results depend on the processing

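These settings bear on calls and cannot turn the sign of a deposited fold change. At a threshold of 0.01 BL-41 kept 5 falls, Namalwa 1, Jiyoye 4 falls and 1 rise. Asking also for a size of 0.5 or more on the log2 scale left 4 falls and 1 rise in BL-41, 0 falls in Namalwa, and 6 falls and 0 rises in Jiyoye. With 0.1 added to the SE in quadrature there were 5 falls in BL-41, 0 in Namalwa, and 4 falls and 1 rise in Jiyoye. The calls of PGLS in Namalwa and RPIA in Jiyoye were lost under each of these 3 settings, and that of RPIA in BL-41 at a size of 0.5. Limited to genes with a mean of at least 100, Namalwa had 2 rises, with SLC16A3 added (adjusted p = 0.0338), and Jiyoye added HK1 (adjusted p = 0.0402) and PGM1 (adjusted p = 0.0380) to its falls. With that limit 2 members differed for BL-41 minus Namalwa, with RPE added (adjusted p = 0.0399), and 1 for BL-41 minus Jiyoye, PFKL (adjusted p = 0.0432), and at 0.01 there were 0 for BL-41 minus Namalwa and 0 for Namalwa minus Jiyoye. Fewer genes tested, a stricter threshold or a larger SE make these counts by construction. Centring moved no call among 96 member fold changes, and other transcript lengths, of which the deposited one was chosen after seeing the data, moved no difference in share of LDHA, SLC16A3, HK2 or PGM1 beyond its SE, but coding length moved the shares themselves and put LDHA above LDHB in Namalwa, in Jiyoye with FOXO3 shRNA and in BL-41 with scrambled shRNA. Coding length also put HK2 above HK1 in Jiyoye and SLC16A3 below SLC16A1 in Jiyoye with scrambled shRNA. Both other lengths put PGM1 below PGM2 in BL-41 with FOXO3 shRNA. The shorter promoter window changed no member count by over 1.5 times. No paired analysis was possible because the deposited columns hold 1 value per group and carry no replicate numbers. For the same reason edgeR and fits without each replicate in turn were not run. The recovered SE limits what could be called, most of all for SLC2A1, SLC2A3, PFKFB3 and PFKFB4 in Jiyoye.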
